A study of Mus musculus with 6 samples.

Results

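The ZBTB genes encode proteins that join a BTB domain to C2H2 zinc fingers. The BTB domain pairs the proteins with each other and recruits corepressor complexes and the ubiquitin ligase scaffold CUL3, and the zinc fingers bind DNA. Most members are known as transcriptional repressors, but not all act that way at every site, and Zbtb17 (MIZ-1) is a well-known activator. BCL6, on which the germinal centre B cell depends, belongs to the same protein family under another name, and several ZBTB members set the fate of lymphocytes. The genes described here were chosen by symbol alone, as Zbtb followed by a number and at most 1 letter, which gave 40 genes of the 55401 in the count tables. The members are called ZBTB genes below, since the tables measure RNA and say nothing of repression.

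Levels were measured by sequencing of polyadenylated RNA from germinal centre B cells of the spleen, taken from wild-type mice of the strain C57BL/6. Every mouse was immunised by intraperitoneal injection of sheep erythrocytes (SRBC), a particulate antigen that calls on T cell help, with a challenge on day 5 and killing on day 12. Flow sorting gave the groups labelled DN and DP, with 3 libraries each, and the markers behind these names are not given. The design text has both groups coming from each of 3 mice, but which mouse gave which library is not stated, so the p-values reflect how far these libraries scatter, and that scatter may be technical. Ages are not given, and no label names a transgene or a deletion.

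Gene counts lay between 8904415 and 11897360 per library in DN and between 17509384 and 20538024 in DP, so that DP was 1.88 times deeper. Levels are CPM, read counts scaled by library size and TMM composition factors, as mean ± SD over n = 3 libraries. A change is the log2 ratio of DP to DN, with its standard error, from edgeR's quasi-likelihood test. A gene was called at a Benjamini-Hochberg adjusted p under 0.05 over 11296 tested genes. Scaling by library totals alone moved the median of all genes from 0.01 to -0.19, and it is named below where it changes a call. Of 10 germinal centre B cell markers 9 fell in DP and 1 rose, where 37.6% of all tested genes fell and 38.3% rose. The summed level of these markers was 3200 to 3236 CPM in DN and 1636 to 1670 CPM in DP. Since these are bulk libraries, fewer cells of a type and less RNA per cell cannot be told apart.

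Of the 40 ZBTB genes, 35 had enough counts to be tested. Zbtb46, Zbtb32, Zbtb45 and Zbtb12 rose 2-fold or more in DP, and Zbtb42, Zbtb4, Zbtb18 and Zbtb7b fell 2-fold or more. Zbtb20, Zbtb38 and Zbtb1, the members with the highest CPM in DN before any scaling by length, were lower in DP, and Zbtb17 was higher. In all, 9 genes rose (25.7% of those tested) where 38.3% of all tested genes rose, and 16 fell (45.7%) where 37.6% of all tested genes fell. In either direction 25 were called (71.4%, against 75.9% of all tested genes). The median change was -0.19, against 0.01 over all tested genes. With library totals alone 5 rose and 23 fell, so that 17.9% of the called members were higher in DP instead of 36%. The same scaling took this share over all called genes from 50.5% to 38.0%. Without a filter on low counts 9 members rose and 11 fell (45% higher), and 53.9% of all called genes were higher. Counts at or past 2-fold were near the background: 4 of 35 rose that far (11.4%, against 12.3% of all genes) and 4 fell that far (11.4%, against 12.8%). The 3 DP libraries lay wholly above the DN libraries for 8 members (22.9%, against 39.0% of all genes) and wholly below them for 15 (42.9%, against 38.0%). Zbtb46 passed the filter on low counts through its DP libraries alone and Zbtb42 through its DN libraries alone, while the other 33 passed in both groups. These counts therefore describe the members and carry no test of the family.

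**Figure D1:**
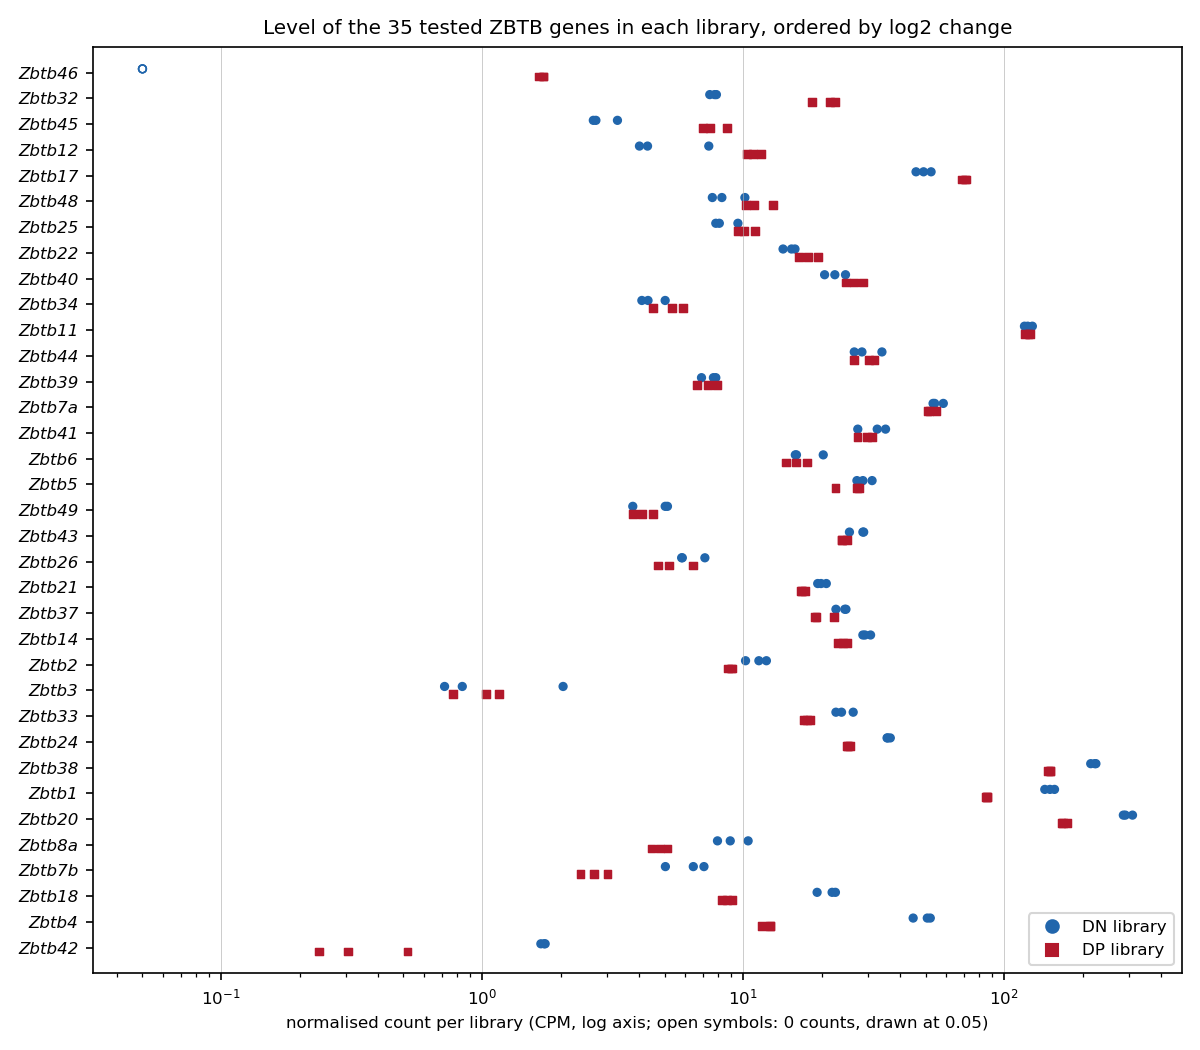
Normalised count (CPM, log axis) of each of the 35 tested ZBTB genes in every library, with DN libraries as blue circles and DP libraries as red squares, ordered from the largest rise to the largest fall. Zbtb46 has 0 counts in all 3 DN libraries (open circles), and the points of Zbtb4, Zbtb18 and Zbtb42 at the bottom are well separated between the groups.

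Summed over the 40 genes, DN stood at 1359 ± 23.1 CPM and DP at 1049 ± 10.8 CPM. Zbtb20, Zbtb38 and Zbtb1 together held 48.9% of the ZBTB counts in DN and 38.5% in DP. Without these 3 genes the sums were 692 ± 23.0 and 645 ± 4.43 CPM, so most of the difference in the sum lay in them.

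Zbtb46 showed the widest gap of the family. Its product marks classical dendritic cells and endothelium. The DN libraries held 0, 0 and 0 counts and the DP libraries 29, 33 and 27, or 1.72, 1.71 and 1.65 CPM. Every DP library was thus above every DN library, at a low level. Against a floor of 3 counts over the 3 DN libraries together (0.0938 CPM), Zbtb46 was at least 18.1-fold higher in DP. Zbtb46 was tested only because of its DP level. The edgeR adjusted p of 2.99e-11 belongs to the fitted change, not to this bound. The floor covers counting error only. Zbtb46 (ENSMUSG00000027583.13) lies on the minus strand of chromosome 2 from 181387762 to 181459426 in GRCm38, as a protein-coding gene that shares no exon base with another gene of the tables.

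Markers of dendritic cells were read beside this value. Of 10 such markers, 6 averaged no more than 3 counts per library, and Xcr1, Clec9a, Siglech, Cd209a and Clec10a had 0 counts in all 3 DP libraries. Of the 3 tested markers Flt3 and Itgax rose and Sirpa fell, where 38.3% of all tested genes rose and 37.6% fell. Itgax, with 4, 3 and 3 counts in DN and 15, 14 and 12 in DP, was tested only because of its DP level. The summed level of the list was 30.03 to 31.7 CPM in DN and 42.3 to 44.4 CPM in DP. Most of it was Flt3, a cytokine receptor gene of dendritic cells and progenitors, which went from 24.6 ± 0.207 to 40.4 ± 1.23 CPM.

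Zbtb32 rose as well, at a higher level. Its product (PLZP) restrains T cell cytokine production and the recall response of memory B cells. The DN libraries were at 7.78, 7.45 and 7.90 CPM and the DP libraries at 22.6, 21.5 and 18.4 CPM. The groups were far apart, with a change of 1.43 ± 0.11 or 2.701-fold (adjusted p = 3.18e-18, edgeR). Zbtb32 lies on the minus strand of chromosome 7 from 30589681 to 30598909. Zbtb45, described as a regulator in glial progenitors, stood at 3.30, 2.73 and 2.67 CPM in DN and at 7.002, 8.65 and 7.45 CPM in DP. Its change was 1.40 ± 0.17, with no overlap between the groups. Zbtb12 was at 4.01, 4.30 and 7.39 CPM in DN and at 11.7, 10.4 and 10.9 CPM in DP, a change of 1.09 ± 0.15. DN replicate 3 was the highest DN library for Zbtb12, yet it stayed below all DP libraries. In Zbtb12, 161 exon bases (7.97%) overlap C2 on the opposite strand, a complement gene with 10, 6 and 7 counts in DN and 40, 40 and 31 in DP. The strand setting of the counting is not given in the sources used here, so reads of such pairs cannot be separated with certainty.

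Zbtb17 had the highest level, in CPM and per length, of the genes of the family that rose. MIZ-1, its product, activates cell cycle inhibitor genes and turns into a repressor when MYC or BCL6 binds it. The DN libraries were at 52.5, 49.1 and 46.0 CPM and the DP libraries at 71.0, 71.4 and 68.9 CPM. All DP libraries lay above all DN libraries, and the change was 0.51 ± 0.06 (1.43-fold, edgeR adjusted p = 1.80e-12). Of 12 partners and targets of Zbtb17 in a list, 8 were tested, of which 6 rose, 1 fell and 1 was not called (median 0.63), where 38.3% of all tested genes rose and 37.6% fell. Among its partners Myc rose by 3.55 ± 0.09, the nucleolar protein gene Npm1 by 2.01 ± 0.04, the repressor gene Gfi1 by 1.94 ± 0.21 and the ubiquitin ligase gene Huwe1 by 0.77 ± 0.03. Max (0.28 ± 0.05) and the autophagy gene Ambra1 (0.15 ± 0.07) rose less, and Vamp4 fell by 0.21 ± 0.08. Without DN replicate 2, DP replicate 1 or DP replicate 2 the fall of Vamp4 was not called, and without DN replicate 3 the genes that fell numbered 2. The cell cycle inhibitors, textbook targets of MIZ-1, were hardly detected. Cdkn1a had 3, 5 and 3 counts in DN and 10, 13 and 13 in DP (means of 0.356 and 0.687 CPM). Cdkn2b had 0, 0 and 1 in DN and 1, 1 and 4 in DP (0.0342 and 0.119 CPM). Cdkn1c had 12, 6 and 5 in DN and 7, 5 and 2 in DP (0.695 and 0.266 CPM).

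Smaller rises were seen in 5 genes, of which Zbtb17 was the largest. Zbtb48, whose product TZAP binds telomeres, was at 7.62, 8.29 and 10.2 CPM in DN and at 10.98, 13.1 and 10.3 CPM in DP (0.42 ± 0.12). Its groups just failed to touch, since the highest DN library lay next to the lowest DP library. Zbtb25, described as a repressor in T cells, was at 7.86, 9.55 and 8.11 CPM in DN and at 10.1, 11.1 and 9.53 CPM in DP (0.28 ± 0.12). Here the groups overlapped. Zbtb22 was at 14.2, 15.3 and 15.8 CPM in DN and at 19.4, 16.4 and 17.8 CPM in DP (0.24 ± 0.10), and Zbtb40 rose by 0.24 ± 0.08. None of Zbtb48, Zbtb25, Zbtb22 and Zbtb40 was called with library totals alone. DESeq2 did not call Zbtb25 and Zbtb22, and some calls hung on single libraries. Zbtb25 was not called without DN replicate 1 (0.22), DN replicate 3 (0.26) or DP replicate 2 (0.22), Zbtb22 not without DN replicate 1 (0.20) or DP replicate 1 (0.19), and Zbtb40 not without DN replicate 3 (0.18) or DP replicate 2 (0.19). Zbtb22 shares 149 exon bases on the same strand with the antigen presentation gene Tapbp, which rose by 0.64 ± 0.06.

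Among the genes that fell, Zbtb4 had the largest change of those above 2 CPM. Its product binds methylated CpG sites and represses the cell cycle inhibitor gene Cdkn1a. The DN libraries were at 50.8, 44.8 and 52.1 CPM and the DP libraries at 11.8, 12.7 and 12.7 CPM. This is a gap of 3.97-fold with no overlap (-1.99 ± 0.08, edgeR adjusted p = 1.05e-31). Zbtb4 lies on the plus strand of chromosome 11 from 69765912 to 69784023. The other methyl-CpG binders of the family fell less. Zbtb38 was at 225, 223 and 215 CPM in DN and at 151, 149 and 147 CPM in DP (-0.57 ± 0.04). Zbtb33, the gene of Kaiso, was at 26.4, 23.8 and 22.7 CPM in DN and at 17.0, 17.6 and 18.1 CPM in DP (-0.48 ± 0.08). All 3 of these genes were lower in every DP library than in every DN library, as were 38.0% of all tested genes.

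Of 7 methyl-CpG binding genes outside the family 5 fell, 1 rose and 1 was not called, with a median of -0.49, where 37.6% of all tested genes fell and 38.3% rose. The glycosylase gene Mbd4 fell from 378 ± 14.5 to 91.8 ± 2.20 CPM (-2.04 ± 0.04) and Mbd2 from 638 ± 10.8 to 220 ± 4.68 CPM (-1.54 ± 0.04). Mbd5 fell by 0.53 ± 0.11 and Mbd6 by 0.49 ± 0.12. Mbd3, which encodes a subunit of the NuRD complex, rose by 0.84 ± 0.04.

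Zbtb18 (RP58), known as a repressor in the developing cortex, was at 21.9, 19.2 and 22.6 CPM in DN and at 8.31, 8.70 and 9.10 CPM in DP. Its fall was 1.29 ± 0.10 on the log2 scale, or 2.45-fold, with no overlap (edgeR adjusted p = 1.00e-17). Zbtb42, a gene known from skeletal muscle, stood at 22, 16 and 17 counts in DN and at 4, 10 and 5 counts in DP. The 3 DN libraries were close together at 1.73, 1.68 and 1.74 CPM, and the DP libraries were at 0.24, 0.52 and 0.31 CPM (-2.22 ± 0.38). All 3 DP libraries were under the filter's cutoff of 0.68 CPM, so that Zbtb42 was tested only because of its DN level. As a ratio of counts DP held 0.210 of the DN level, with a 95% exact counting interval of 0.118 to 0.360. Zbtb8a was at 10.5, 7.98 and 8.93 CPM in DN and at 4.81, 4.45 and 5.13 CPM in DP (-0.95 ± 0.14). Of its exon bases 264 (11.4%) overlap Zbtb8os on the opposite strand.

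Promoter windows of Zbtb32, Zbtb4 and Zbtb18 are shown because Zbtb32 had the largest rise and Zbtb4 and Zbtb18 the largest falls among members with over 10 CPM in the higher group. For all 3 the RefSeq start is also the GENCODE gene start. The windows hold the 250 bases before that start, 5′ to 3′ on the gene's strand, from RefSeq on GRCm38.p6. Capitals mark CCAAT boxes in Zbtb32 and GC boxes in Zbtb4 and Zbtb18, on either strand. Zbtb32 is at chr7:30598910-30599159 (minus strand), Zbtb4 at chr11:69765662-69765911 (plus strand) and Zbtb18 at chr1:177442101-177442350 (plus strand).
Zbtb32: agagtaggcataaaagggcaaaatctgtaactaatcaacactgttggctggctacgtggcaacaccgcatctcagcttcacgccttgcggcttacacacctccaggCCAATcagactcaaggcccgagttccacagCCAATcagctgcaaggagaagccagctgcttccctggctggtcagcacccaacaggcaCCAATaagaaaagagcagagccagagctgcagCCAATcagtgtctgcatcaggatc
Zbtb4: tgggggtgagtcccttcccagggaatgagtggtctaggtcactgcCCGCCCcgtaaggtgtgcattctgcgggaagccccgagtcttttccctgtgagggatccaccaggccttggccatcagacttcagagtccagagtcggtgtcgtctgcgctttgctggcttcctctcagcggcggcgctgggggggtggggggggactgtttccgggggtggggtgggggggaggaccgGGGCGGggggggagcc
Zbtb18: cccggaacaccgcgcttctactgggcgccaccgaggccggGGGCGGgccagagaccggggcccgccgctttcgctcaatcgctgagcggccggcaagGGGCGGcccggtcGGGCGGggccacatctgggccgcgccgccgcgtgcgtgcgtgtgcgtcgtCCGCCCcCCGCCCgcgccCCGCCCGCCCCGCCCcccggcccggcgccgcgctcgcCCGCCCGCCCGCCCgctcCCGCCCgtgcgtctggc

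The Zbtb32 window holds 4 CCAAT boxes (CCAAT) and no GC box (GGGCGG), while Zbtb4 holds 2 GC boxes and Zbtb18 holds 12, some of them overlapping. At least 4 CCAAT boxes were found in 0.84% of all 32851 RefSeq windows of that length, 2 or more GC boxes in 16.7%, and 12 or more GC boxes in 5 windows. Among ZBTB windows 3 held at least 4 CCAAT boxes, those of Zbtb32, Zbtb5 (lower in DP) and Zbtb3 (not called). A window of Zbtb32 at another RefSeq start held 0 CCAAT boxes. The windows of Zbtb18 at its other RefSeq starts held 0 GC boxes. In 20 ZBTB windows there were 2 or more GC boxes, and in 1 there were 12. The table held windows for 35 of the 40 ZBTB genes, 48 windows in all, several of them overlapping starts of 1 gene. A GC box stood in 60.4% of these windows and in 32.7% of all windows, and a CCAAT box in 29.2% and 33.85%. ZBTB windows had a median GC content of 64.6% and 20 CpG sites, against 52.4% and 6 over all windows. By gene, a GC box was present for 13 of 16 that fell, for 9 of 10 that were not called and for 2 of 7 that rose, against 35.4% of all 27025 genes with windows. The E-box (CACGTG), which MYC and MAX bind, stood in 10.4% of ZBTB windows and 6.02% of all, for 1 gene that rose and 1 that fell. The AP-1 site (TGANTCA) was found in 1 ZBTB window, the NF-kB site in 1, the cyclic AMP response element (TGACGTCA) in 1, the ETS site (CCGGAAGT) in 3, the NRF1 site in 3, the interferon element in 2 and the STAT site (TTCNNNGAA) in 0. Their shares of all windows were 6.75%, 0.356%, 1.55%, 2.88%, 0.782%, 2.98% and 7.02%. Both strands were searched, and the letters of no motif contain those of another. These matches describe letters, not binding.

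Genes with a known part in lymphocyte fate moved in both directions. Of 11 such members 10 were tested, of which 4 rose (Zbtb46, Zbtb32, Zbtb17 and Zbtb25), 5 fell and Zbtb7a was not called. Over all tested genes 38.3% rose and 37.6% fell, and Zbtb46 was tested only because of its DP level. Zbtb20, a close relative of Bcl6 that supports the survival of plasma cells, had the highest CPM of the members in both groups, not scaled by length, at 291, 286 and 310 CPM in DN and at 175, 166 and 168 CPM in DP. Its fall was 0.80 ± 0.04 (1.75-fold, edgeR adjusted p = 5.24e-27), with every DP library below every DN library. The gene lies on the plus strand of chromosome 16 from 42875881 to 43642602. Zbtb1, needed for the development of lymphocytes, was at 149.9, 156 and 143 CPM in DN and at 86.2, 85.2 and 86.2 CPM in DP. It fell by the same size, 0.80 ± 0.04, again without overlap. Zbtb7b (ThPOK), which sets the CD4 helper fate of T cells, was at 6.45, 5.04 and 7.08 CPM in DN and at 3.03, 2.38 and 2.69 CPM in DP (-1.21 ± 0.18). Zbtb7a (LRF), known to sustain germinal centre B cells, was at 58.5, 53.4 and 54.2 CPM in DN and at 50.9, 55.1 and 51.8 CPM in DP. Its groups overlapped and it was not called (-0.08 ± 0.06), although with library totals alone it was, at -0.27. Zbtb16 (PLZF), the factor of innate-like T cells, had 1 count in the 6 libraries together, so no change could be read.

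Plasma cell and T cell markers were read beside these values. Of 10 plasma cell markers 8 were tested, of which 5 rose, 2 fell and 1 was not called. Over all tested genes 38.3% rose and 37.6% fell. The plasma cell list summed to 617 to 637 CPM in DN and 479 to 493 CPM in DP. The 2 that fell were Jchain, from 277 ± 5.80 to 155 ± 2.38 CPM, and Slamf7, from 216 ± 6.99 to 95.8 ± 0.910 CPM. Among the 5 that rose, Xbp1 went from 113 ± 7.34 to 140 ± 6.06 CPM and Irf4 from 12.1 ± 0.586 to 70.5 ± 1.43 CPM. Prdm1 went from 1.26 ± 0.424 to 3.50 ± 0.345 CPM. The part of plasma cells in the values of Zbtb20 and Zbtb32 was not tested. Of 14 T cell markers 9 averaged no more than 3 counts per library, among them Cd3e with 2, 4 and 7 counts in DN and 1, 0 and 1 in DP. Only Cd2, Lck, Thy1 and Cd4 of that list were tested. The list summed to 203 to 233 CPM in DN and 94.6 to 99.6 CPM in DP, of which Cd2 made 162 ± 12.6 and 31.8 ± 1.43 CPM and Lck 50.8 ± 4.00 and 57.8 ± 1.41 CPM. Of 10 markers of natural killer and innate lymphoid cells 7 averaged no more than 3 counts, with sums of 3.57 to 5.95 CPM in DN and 5.93 to 6.58 CPM in DP. Erythroid markers summed to 62.1 to 72.5 CPM in DN and 15.9 to 18.3 CPM in DP, and macrophage markers to 34.2 to 37.8 and 16.2 to 19.98 CPM. Of their tested genes 6 of 6 and 8 of 9 were lower in DP, against 37.6% of all tested genes. Stromal markers summed to 2.41 to 4.62 and 2.44 to 3.21 CPM. Markers of naive and marginal zone B cells summed to 672 to 682 CPM in DN and 311 to 321 CPM in DP. Of 7 tested genes of that list 6 fell and 1 (Fcer2a) rose, where 37.6% and 38.3% of all tested genes did. Klf2, among the 6, was tested only because of its DN level. The part of all these cells in the falls of ZBTB genes was not tested.

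**Figure D2:**
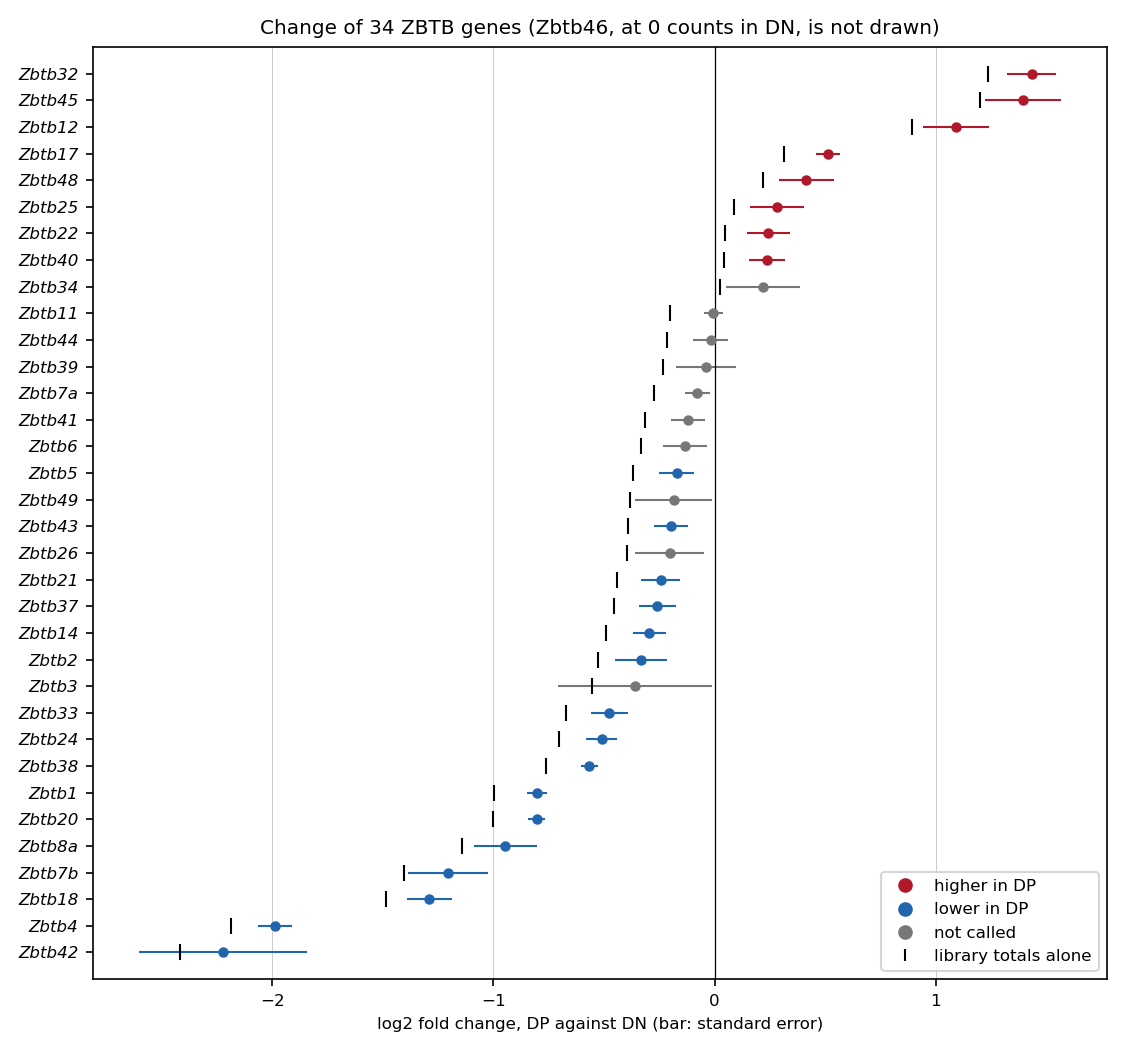
Log2 fold change of DP against DN (points, with the standard error as bars) for 34 tested ZBTB genes, coloured by call, and the value with library totals alone as black ticks. The ticks lie to the left of the points by about the shift of the median of all genes. The ticks of Zbtb32, Zbtb45, Zbtb12, Zbtb17 and Zbtb48 stay right of 0 by more than the standard error drawn.

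Zbtb24 was lower in DP. It is mutated in ICF syndrome, an immunodeficiency with loss of DNA methylation at satellite repeats, and its product is known to switch on Cdca7. The DN libraries were at 35.6, 36.6 and 35.8 CPM and the DP libraries at 25.7, 25.2 and 25.0 CPM (-0.51 ± 0.07, edgeR adjusted p = 3.18e-09). The groups were tight and did not overlap. Of 6 genes linked to ICF syndrome or DNA methylation, or related to such a gene, 5 rose and 1 fell, with a median of 0.50. Over all tested genes 38.3% rose and 37.6% fell. These 6 genes are labelled partners of Zbtb24 below, a name for the list only. Cdca7 itself rose from 198 ± 3.12 to 370 ± 1.81 CPM (0.90 ± 0.04), its relative Cdca7l rose by 0.58 ± 0.05, the methylation reader gene Uhrf1 by 0.42 ± 0.04 and the remodeller gene Hells by 0.39 ± 0.04. The methyltransferase gene Dnmt3b rose by 1.31 ± 0.14 and Dnmt1 fell by 0.11 ± 0.03. Without a filter on low counts the fall of Dnmt1 was not called.

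Among the members linked to genome or telomere maintenance (Zbtb1, Zbtb10, Zbtb24, Zbtb38, Zbtb40 and Zbtb48), 5 were tested, of which 2 rose and 3 fell. Among those linked to p53 or Cdkn1a (Zbtb2, Zbtb4, Zbtb5, Zbtb7a, Zbtb17 and Zbtb49), 1 rose, 3 fell and 2 were not called. Against the 38.3% that rose and the 37.6% that fell over all tested genes, groups this small show no more than their own counts. Zbtb2 went from 11.3 ± 1.04 to 8.93 ± 0.133 CPM (-0.33 ± 0.12) and was not called without DN replicate 2 (-0.27). Zbtb5 went from 29.1 ± 1.97 to 25.9 ± 2.89 CPM (-0.17 ± 0.08), with overlapping groups. It was not called without DN replicate 1 (-0.18), DN replicate 3 (-0.12) or DP replicate 2 (-0.069). Zbtb43 (-0.20 ± 0.08) was not called without DN replicate 1 (-0.16), DN replicate 2 (-0.16), DP replicate 1 (-0.18) or DP replicate 2 (-0.18). Zbtb14 (-0.30 ± 0.08), Zbtb37 (-0.26 ± 0.08) and Zbtb21 (-0.24 ± 0.09) fell by similar small amounts, and their calls held when any single library was left out. Without a filter on low counts, Zbtb2, Zbtb5, Zbtb21, Zbtb37 and Zbtb43 were not called, and DESeq2 did not call Zbtb5 and Zbtb43.

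The 10 tested members that were not called lay between -0.36 and 0.22 on the log2 scale, and the groups overlapped for all 10. Zbtb11, needed in blood cell development, was among the members of highest CPM, with 124 ± 4.33 CPM for DN and 123.4 ± 2.75 CPM for DP (-0.0057 ± 0.043). Zbtb44, Zbtb39, Zbtb41, Zbtb6, Zbtb26, Zbtb49 and Zbtb34 make up the rest with Zbtb7a and Zbtb3. With library totals alone Zbtb11, Zbtb44, Zbtb7a, Zbtb41, Zbtb6, Zbtb26 and Zbtb49 were called as lower in DP. Zbtb41 (-0.12 ± 0.08) was called without DN replicate 3 (-0.21). Zbtb3 had 26, 8 and 7 counts in DN and 13, 20 and 19 in DP, and its sign turned without DN replicate 1 (from -0.36 to 0.35, not called in either case).

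The 5 members that were not tested had at most 8 counts in any library. Zbtb10 had 4, 8 and 7 counts in DN and 5, 8 and 6 in DP, or 0.624 ± 0.275 and 0.359 ± 0.0592 CPM. Zbtb7c had 5 counts in DN and 4 in DP, Zbtb8b had 1 and 5, and Zbtb9 had 1 and 1. Of the exon bases of Zbtb9, 84.4% are also exon bases of Ggnbp1 on the same strand, which itself had 0, 0 and 1 counts in DN and 0, 1 and 2 in DP.

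To compare members with each other, levels were divided by the summed length of all annotated exons (CPM per kb), which understates genes with long exons that these cells do not use, such as Zbtb20 with 30730 bases. In DN the highest members per length were Zbtb38 (18.8 CPM per kb), Zbtb11 (16.6), Zbtb17 (12.7), Zbtb1 (12.3) and Zbtb20 (9.63). In DP the order was Zbtb17 (18.2 CPM per kb), Zbtb11 (16.6), Zbtb38 (12.7), Zbtb32 (8.84) and Zbtb7a (7.72). Zbtb32 moved from place 18 to place 4 of 40, and Zbtb4 from place 9 to place 24.

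**Figure D3:**
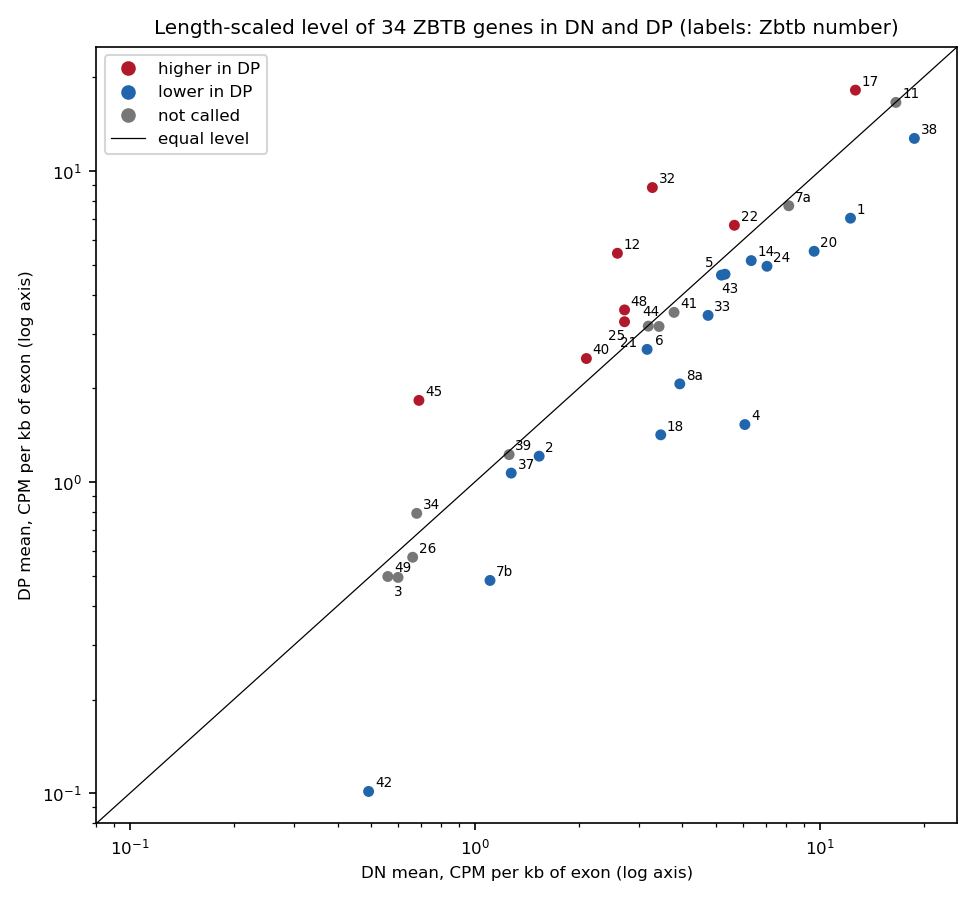
Mean level of 34 ZBTB genes per kb of exon in DN (horizontal, log axis) and in DP (vertical, log axis), coloured by call, with the line of equal level. Zbtb17, Zbtb11 and Zbtb38 form the top group in both subsets, Zbtb32 lies far above the line and Zbtb4, Zbtb18 and Zbtb42 lie far below it.

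Some members sit close to other genes. Of the 35 tested members 16 share exon bases with another gene of the tables, and of these 3 rose (18.8%) and 9 fell (56.2%). Of the 19 that share none, 6 rose (31.6%) and 7 fell (36.8%), where 38.3% and 37.6% of all tested genes did. Most genes that overlap the 9 sharing members that fell were hardly detected. Zbtb8os had the highest DN mean of them (44.2 CPM) and was not called. C2cd2 came next, with a DN mean of 2.03 CPM, and was not called either. 1700055D18Rik, opposite Zbtb5, fell by 1.45 ± 0.37 from a DN mean of 1.69 CPM. The others had at most 4 counts in any library. Whether sharing exon bases altered the calls was not tested. Zbtb1 and Zbtb25 start 664 bases apart on opposite strands of chromosome 12 and had opposite signs, with Zbtb1 at -0.80 ± 0.04 and Zbtb25 at 0.28 ± 0.12. Zbtb49 starts 13 bases from Lyar, a nucleolar protein gene. Lyar went from 166 ± 7.98 to 813 ± 21.5 CPM (2.30 ± 0.04), while Zbtb49 was at 4.65 ± 0.753 and 4.13 ± 0.366 CPM and was not called (-0.19 ± 0.17). Zbtb6 and Zbtb26 share 449 exon bases and start 108 and 144 bases from Rabgap1, and none of the 3 was called.

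BTB zinc finger genes with other names were called in both directions. Of 8 such genes 7 were tested, of which 4 rose and 3 fell (median 0.14), against 38.3% and 37.6% of all tested genes. Bcl6 went from 160 ± 1.94 to 76.6 ± 1.09 CPM (-1.06 ± 0.04). Hic1, a tumour suppressor gene, had 3, 0 and 1 counts in DN and 26, 35 and 26 in DP. It is among the 4 that rose and was tested only because of its DP level. Its relative Hic2 rose from 0.944 ± 0.160 to 3.16 ± 0.117 CPM (1.74 ± 0.27). Patz1, a regulator of the Cd8 genes in T cells, rose by 0.64 ± 0.08 and Zfp131 by 0.14 ± 0.04, while Gzf1 fell by 0.51 ± 0.09 and Mynn by 0.27 ± 0.09. With library totals alone 3 of these 7 genes rose and 3 fell, as did 3288 and 5359 of all 11296 tested genes. Among 4 further BTB transcription factors 3 were tested. Bach2, a BTB leucine zipper repressor of plasma cell formation, fell by 3.26 ± 0.05 and its relative Bach1 by 0.55 ± 0.16, while Nacc1 rose by 0.48 ± 0.04. Among ZBTB genes that passed the filter in both groups, Zbtb4 had the most negative change, at -1.99 ± 0.08.

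Genes of the corepressor complexes that BTB proteins recruit were divided. Of 31 tested genes 11 rose, 12 fell and 8 were not called (median 0.04), where 38.3% and 37.6% of all tested genes rose and fell. The deacetylase gene Hdac9 fell from 101 ± 2.65 to 27.2 ± 1.41 CPM (-1.89 ± 0.06). On the other side Kdm2b, of the BCOR complex, rose by 1.34 ± 0.04, and the NuRD genes Mbd3 and Rbbp7 rose by 0.84 ± 0.04 and 0.82 ± 0.04. Mbd3 is also in the methyl-CpG list. With library totals alone 10 rose and 17 fell, as did 3288 and 5359 of all 11296 tested genes.

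**Figure D4:**
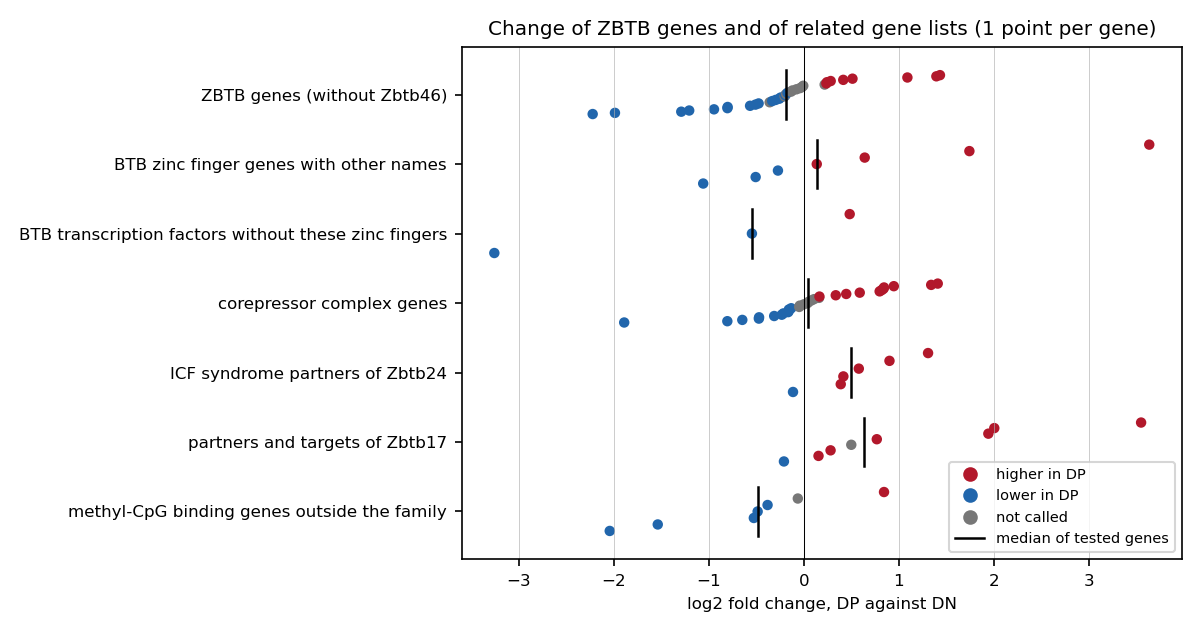
Log2 fold change of DP against DN for the ZBTB genes without Zbtb46 and for 6 lists of related genes (1 point per tested gene, coloured by call, with the median of the tested genes as a black bar). The medians are -0.19 for the ZBTB genes, 0.50 for the partners of Zbtb24, 0.63 for those of Zbtb17 and -0.49 for methyl-CpG binding genes outside the family.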

How the data were processed

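The authors deposited 1 table of raw read counts per gene for each of 6 libraries. The submitters' processing notes name HTSeq 0.13.5, STAR 2.7.10a, Trim Galore 0.6.6 and the build mm10, with roles, settings, strand and annotation release not given in the sources used here. Library preparation was stranded, per the labels' protocols. The 5 summary rows that name no gene (12.6% of counts in DN and 9.56% in DP on average) were left out. Libraries were grouped by title. DP was compared with DN over all genes with edgeR 4.0.16 in R 4.3.3 (TMM factors, filterByExpr with minimum count 10, robust quasi-likelihood F test, no block), after the script was tested on simulated data. Libraries of a group differed by more than sampling noise (chi-square per degree of freedom 1.96 to 3.26), so all were kept. Positions and exons came from GENCODE M21 (GRCm38), to which 55141 of 55401 gene identifiers matched without their version, and all 40 ZBTB identifiers matched with it.

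The members and lists were chosen with earlier results of these data known. Values in each library are given for the called members with the 8 largest rises and the 8 largest falls and for 12 members named by role. Up to 4 genes with the smallest p are named per related list, beside Bcl6, Bach2 and Myc. Other genes that complete a count of 5 or fewer, the untested Zbtb17 targets, and the genes neighbouring members were named after their values were seen, and so were the 3 promoters and the 10 motifs. Alternatives were other scalings, filters and thresholds, DESeq2 1.42.0, limma-voom (limma 3.58.1), immunoglobulin genes left out, a replicate block and each library left out. Thinning DP to the mean DN depth and dropping members that share exon bases were added after the data were seen. The values of 1 gene of the related lists are not reported here.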

Additional observations from a re-analysis of the deposited data

How the results depend on the processing

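Of 25 called ZBTB genes, Zbtb46, Zbtb32, Zbtb45, Zbtb12, Zbtb4, Zbtb18, Zbtb7b, Zbtb8a, Zbtb20, Zbtb1 and Zbtb42 kept direction and call under every alternative that tested them. Tested against a minimum fold of 1.5, 4 ZBTB genes rose and 7 fell, as did 1964 and 1912 of all genes, 7 and 2 corepressor genes, 2 and 0 partners of Zbtb24, 2 and 1 BTB zinc finger genes with other names and 0 and 1 other BTB factors. At that minimum 2 methyl-CpG genes and 0 Zbtb17 partners fell. With library totals alone 5 ZBTB genes rose and 23 fell, as did 3288 and 5359 of all 11296 tested genes. Without a filter 7 corepressor genes and 0 partners of Zbtb24 fell. At an adjusted p of 0.01, 0 Zbtb17 partners fell, and between 0 and 2 did with 1 library left out. Of members that share no exon bases 7 fell, by construction among 19 tested. With DESeq2 7 ZBTB genes rose and 14 fell, as did 3976 and 3934 of all 11296 tested genes. With 1 library left out 7 to 9 ZBTB genes rose and 14 to 16 fell. Over all genes 4176 to 4347 then rose and 4075 to 4211 fell. Signs turned only for genes not called. With 1 library left out Zbtb11 ranged from -0.0249 to 0.0268 (without DN replicate 1), Zbtb44 from -0.0819 to 0.11 (without DN replicate 1), Zbtb39 from -0.100 to 0.0325 (without DP replicate 1), Zbtb3 from -0.61 to 0.35 (without DN replicate 1) and Zbtb6 from -0.20 to 0.0108 (without DN replicate 1). Without a filter Zbtb11 was at 0.0680, Zbtb44 at 0.0557 and Zbtb39 at 0.0342. Apart from the cases where fewer genes enter by construction, the cause was not tested. Same-numbered libraries did not deviate together (correlations 0.056, -0.0061 and -0.018), so the block was not used in the results, and whether a number marks a mouse is not stated. With the replicate block 9 ZBTB genes rose and 16 fell, as without it, and 4338 and 4251 of all 11296 tested genes did. Zbtb16, Zbtb8b and Zbtb9 had at most 4 counts in any library of either group, so that no change was detectable.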

Other observations

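A pair of genes carry a Zbtb symbol but no zinc fingers of this family and fall outside the rule. Zbtb8os, which lies opposite Zbtb8a, stood at 44.2 ± 3.62 CPM for DN and 43.8 ± 2.02 CPM for DP (-0.0063 ± 0.063 on the log2 scale, not called), while Zbtb8a fell by 0.95. Zbtb11os1, an antisense RNA at Zbtb11, had 2, 9 and 8 counts in DN and 4, 9 and 6 in DP and was not tested.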
